A study of Mus musculus with 8 samples.

Results

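Glucose breakdown and the response to low oxygen were examined through 40 genes among the 19201 of a cortical bone count table. The 40 were taken by symbol, 31 from glycolysis and its branches and 9 from the hypoxia response. Tibial and femoral cortical bone of C57BL/6J mice aged 6 weeks was compared between 4 WT samples and 4 *Prx1Cre; Piezo1fl/fl* samples (*Piezo1*-deficient below). *Piezo1* encodes a mechanically gated cation channel. *Prx1Cre* acts in limb bud mesenchyme, the origin of osteoblasts, osteocytes and chondrocytes of the limb, and spares blood-derived cells such as osteoclasts. The mice of the WT group are described by genotype only, so whether they carried floxed alleles or Cre is not given in the sources used here. Neither sex nor whether each sample was a separate animal is given, so p-values measure the spread between these samples, which may be technical.

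Glycolysis splits glucose into pyruvate, and lactate dehydrogenase turns pyruvate into lactate where pyruvate does not enter the mitochondria. Several of its enzymes exist as isoforms from separate genes, with *Pfkm*, *Pgam2* and *Eno3* and the insulin-regulated glucose transporter *Slc2a4* characteristic of skeletal muscle. Osteoblasts are known for high glycolysis with oxygen present. Under low oxygen the prolyl hydroxylases no longer mark the HIF alpha subunits for degradation, and HIF then raises transcription of glycolytic genes and of genes such as *Vegfa*. HIF is controlled mainly as a protein, so the mRNA of its subunits is not a measure of its activity.

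Library totals ran from 11963536 to 14536106 counts. *Piezo1* itself was at 194.1, 213.1, 198.9 and 213.6 CPM (read counts normalised to library size) in WT replicates 1, 3, 4 and 5, and at 145.9, 140.1, 131 and 135.7 CPM in *Piezo1*-deficient replicates 1, 3, 4 and 5, the order in which all values by library are given. Osteoblast and osteocyte markers, 10 genes, had no zero in any library. Growth plate chondrocyte markers summed to 4217 to 7765 CPM in WT and 872 to 1032 CPM in the *Piezo1*-deficient libraries, with 13 of 15 called lower. *Piezo1*-deficient replicate 1 stood apart from the other 3 of its group on the second principal component (31.5 against -16.6 to -11.1). WT replicate 1 was also the highest of its group there (15.3 against -7.31 to 4.59). Bulk RNA was measured, so fewer cells of a type and less RNA per cell cannot be told apart.

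Of the 40 genes, 39 passed the filter on low counts and 2 were called, both higher without *Piezo1*. These were *Pgam2* and *Eno3*, muscle isoforms of phosphoglycerate mutase and enolase. A call means an adjusted p under 0.05 in edgeR's quasi-likelihood test with Benjamini-Hochberg adjustment over all 15318 genes tested, of which 3.02% were called, 2.04% higher and 0.973% lower. None of the 39 was called lower by edgeR, and the Wald test of DESeq2 called 1, *Eno1*. At an unadjusted p under 0.05 there were 14, 7 higher and 7 lower, and over all genes tested 18.4% passed that limit, 10.5% higher and 7.89% lower. The log2 fold changes (*Piezo1*-deficient over WT) were positive for 20 and negative for 19, with a median of 0.00 against 0.00 over all genes tested, and 29 of the 39 lay between -0.25 and 0.25. For 36 members outside the muscle isoforms none was called, 11 had an unadjusted p under 0.05, and the median was -0.02. The 95% interval of the fold change stayed within 1.5-fold either way for 27 of these 36 and within 2-fold for 35.

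Libraries of the genotypes did not overlap for 8 members, 4 above WT (*Pfkm*, *Pgam2*, *Eno3*, *Egln1*) and 4 below (*Pfkfb3*, *Aldoc*, *Pgam1*, *Eno1*). Over all genes tested 11.9% did not overlap, 6.65% above and 5.27% below.

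**Figure D1:**
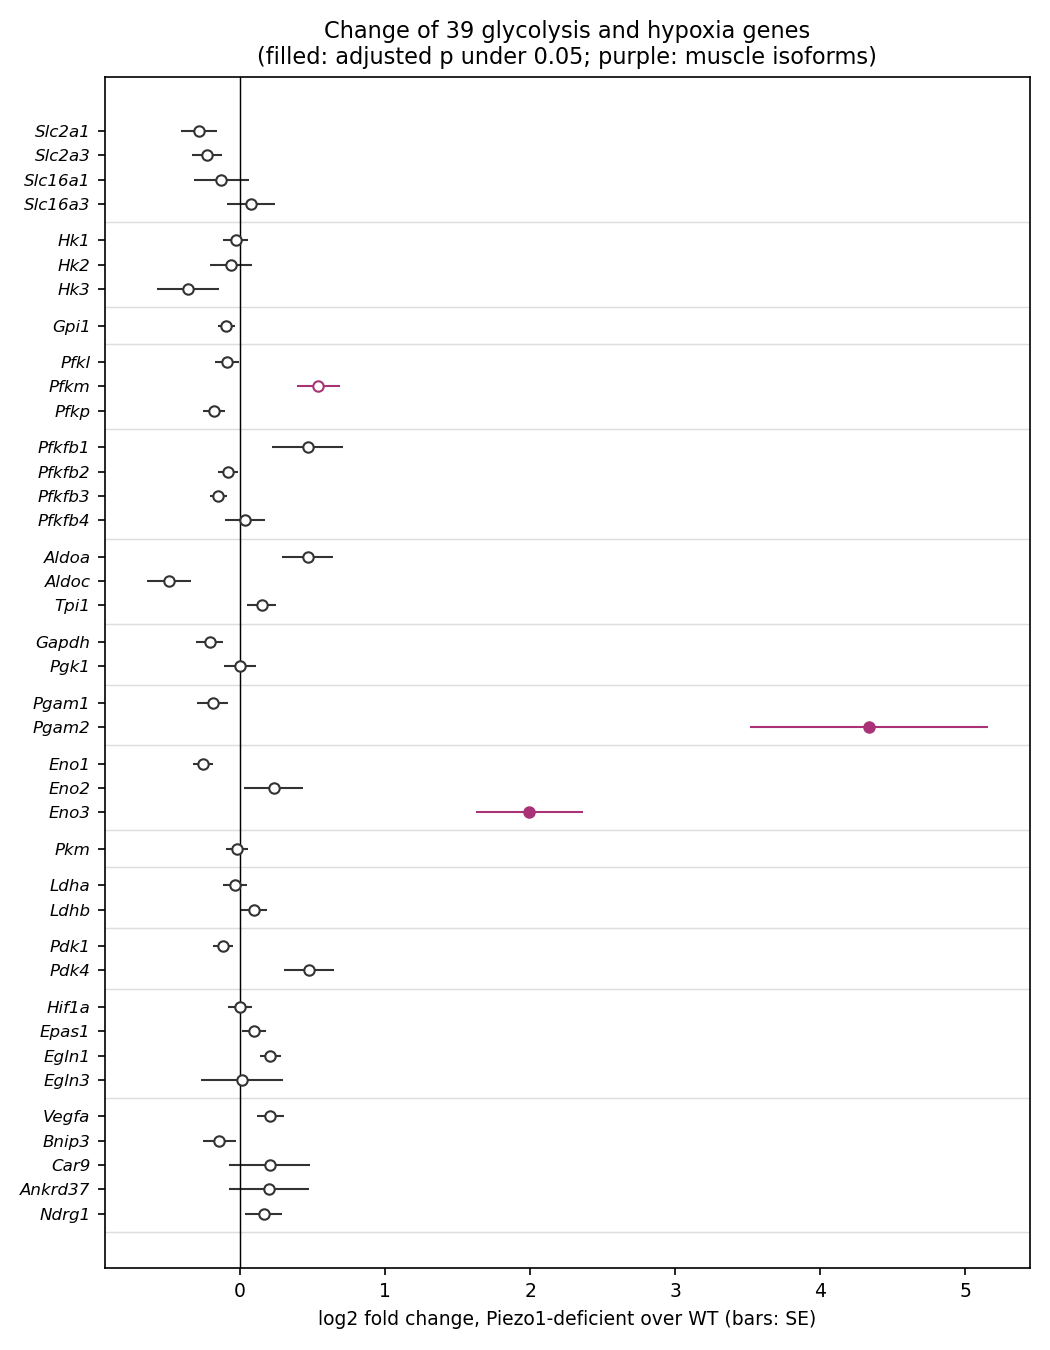
Log2 fold change (*Piezo1*-deficient over WT, with its SE) of the 39 tested members, grouped by step of the pathway from transport at the top to hypoxia targets at the bottom. *Pgam2* at 4.33 and *Eno3* at 1.99 are filled as called, while 29 of the 39 lie between -0.25 and 0.25.

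*Pgam2* carries the mutase step from 3-phosphoglycerate to 2-phosphoglycerate in muscle. It was at 0.157, 0.146, 3.04 and 1.25 CPM in WT and at 6.85, 53.7, 27.0 and 9.65 CPM in the *Piezo1*-deficient libraries. The counts behind the WT values were 2, 2, 47 and 16, so replicates 1 and 3 were at the limit of detection, and every *Piezo1*-deficient library lay above every WT library. The mean went from 1.15 ± 1.37 to 24.3 ± 21.5 CPM (SD, n = 4), and edgeR gave a log2 fold change of 4.33 with an SE of 0.82 and an adjusted p of 0.022, or 20.2-fold with a 95% interval of 5.74 to 70.8. The log2 fold change was 3.59 without *Piezo1*-deficient replicate 3 and 5.55 without WT replicate 4. Leaving out WT replicate 3, WT replicate 5 or *Piezo1*-deficient replicate 4 raised edgeR's adjusted p to 0.0786, 0.0874 and 0.0548.

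*Eno3* encodes beta-enolase, which makes phosphoenolpyruvate in muscle fibres. It was at 0.941, 1.602, 1.49 and 1.80 CPM in WT and at 2.37, 8.27, 7.47 and 5.13 CPM without *Piezo1*, again with no overlap. *Piezo1*-deficient replicate 1 was the lowest of its group and lay close to WT. The mean went from 1.46 ± 0.367 to 5.81 ± 2.65 CPM (SD, n = 4), with a log2 fold change of 1.99, an SE of 0.37 and an adjusted p of 0.0202 in edgeR. The call was lost when WT replicate 3, 4 or 5 or *Piezo1*-deficient replicate 4 was dropped, with adjusted p-values in edgeR of 0.0683, 0.0690, 0.0645 and 0.0552.

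The promoters of these genes are printed because the pair held the calls. Sequences are the 250 bases before the RefSeq start on GRCm38.p6, read 5′ to 3′ on the gene's strand, at chr11:5803797-5804046 (minus strand) for *Pgam2* and chr11:70656926-70657175 (plus strand) for *Eno3*. Capitals mark every CANNTG, the E-box core that myogenic bHLH factors bind, and every match to the MEF2 motif.
Pgam2: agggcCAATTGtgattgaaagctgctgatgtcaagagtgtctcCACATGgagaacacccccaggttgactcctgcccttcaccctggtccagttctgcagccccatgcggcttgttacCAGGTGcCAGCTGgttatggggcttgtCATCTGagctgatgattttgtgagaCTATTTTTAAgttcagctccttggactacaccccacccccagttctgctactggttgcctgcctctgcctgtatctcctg
Eno3: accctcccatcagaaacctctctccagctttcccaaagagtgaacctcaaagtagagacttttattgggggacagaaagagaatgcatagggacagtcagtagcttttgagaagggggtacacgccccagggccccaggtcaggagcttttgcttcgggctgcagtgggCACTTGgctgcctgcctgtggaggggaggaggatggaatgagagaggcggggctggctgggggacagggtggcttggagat
The *Pgam2* window held 5 CANNTG matches, 1 of them CAGCTG, and 1 MEF2 match. The *Eno3* window held 1 CANNTG match and no MEF2 match. CANNTG reads the same on both strands, and 66.2% of 32851 RefSeq promoter windows of this length held it, 13% held CAGCTG and 2.92% a MEF2 match. Of 36 members with a RefSeq window, 26 held CANNTG, 6 held CAGCTG and *Pgam2* alone held a MEF2 match in the window read. Only the first listed RefSeq start of each member was read, although *Pfkm* has 4 starts and *Aldoa* and *Eno1* have 3 each. The shares over all windows count every start, so they are not matched to the member counts in this respect. A match describes letters in the window and is no measure of binding.

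Skeletal muscle markers were also higher without *Piezo1*. The 20 muscle markers summed to 41.1, 31.7, 216 and 124 CPM in WT and to 605, 5694, 2322 and 612 CPM without *Piezo1*, and 19 of the 20 were called higher, with a median log2 fold change of 4.64. In WT replicate 3, 5 of the 20 were at 0 (*Myh1*, *Myh2*, *Myh4*, *Myh7* and *Tcap* were the markers with a zero in some library), and 1 was at 0 in WT replicate 4. None was at 0 in the *Piezo1*-deficient libraries. *Acta1*, skeletal actin, was at 3.61, 0.510, 26.5 and 13.6 CPM in WT and 89.4, 791, 388 and 93.6 CPM without *Piezo1*. *Ckm*, muscle creatine kinase, was at 1.33, 0.219, 19.95 and 6.72 CPM and at 46.2, 526, 195 and 42.3 CPM. Within each group the libraries with the highest *Pgam2* were those with the highest marker sum, WT replicates 4 and 5 and *Piezo1*-deficient replicates 3 and 4. *Eno3* was also highest in *Piezo1*-deficient replicates 3 and 4. In WT it did not follow the marker sum, at 1.602 CPM in replicate 3 and 1.49 CPM in replicate 4.

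*Pgam2* amounted to 0.382%, 0.460%, 1.41% and 1.01% of the marker sum in WT and to 1.13%, 0.942%, 1.16% and 1.58% without *Piezo1*. The ranges of the genotypes overlapped on this scale. *Eno3* amounted to 2.29%, 5.06%, 0.690% and 1.45% of the marker sum in WT and to 0.391%, 0.145%, 0.322% and 0.838% without *Piezo1*. Its share was thus highest where muscle markers were lowest. The part that the muscle markers had in these results was not tested.

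*Pfkm*, the muscle isoform of phosphofructokinase, was the member that came next. It was at 51.5, 45.6, 45.7 and 46.0 CPM in WT and at 55.6, 94.6, 64.2 and 59.7 CPM without *Piezo1*, with no overlap and the highest value in the library with the highest muscle marker sum. The log2 fold change was 0.54 with an SE of 0.15, or 1.45-fold with a 95% interval of 1.16 to 1.82, and edgeR's adjusted p of 0.0804 missed the threshold. It passed without *Piezo1*-deficient replicate 1 (edgeR, adjusted p = 0.0236) and with the Wald test of DESeq2 (adjusted p = 0.0193). With other libraries left out it was not called, and edgeR's adjusted p reached at most 0.205. Without *Piezo1*-deficient replicate 3, where muscle markers peaked, the log2 fold change was 0.34. Unlike *Pgam2* and *Eno3*, it was plentiful in WT bone: per kilobase of exon, mean WT levels were 15.5 CPM for *Pfkm*, 1.37 for *Pgam2* and 0.863 for *Eno3*.

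*Slc2a4*, which encodes the transporter GLUT4 of muscle and fat, had 2 counts in each WT library and 1, 5, 0 and 12 counts in the *Piezo1*-deficient libraries, and was not tested. The 0 in replicate 4 allows up to 3 counts, or 0.220 CPM. Its highest count was in replicate 5, not in replicate 3, where muscle markers peaked. Adipocyte markers, another source known for *Slc2a4*, summed to 131 ± 12.3 CPM in WT and 187 ± 57.8 CPM without *Piezo1* (SD, n = 4), and were highest in *Piezo1*-deficient replicate 5 at 257.6 CPM. Their part in these few counts was not tested.

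*Aldoa*, the aldolase of muscle and of most other cells, was at 352.4, 310.7, 322.9 and 287 CPM in WT and at 344.8, 626.9, 445.3 and 341 CPM without *Piezo1*. Replicates 3 and 4 were above the WT range and replicates 1 and 5 within it. The log2 fold change of 0.47 was not called (edgeR, adjusted p = 0.182), and without *Piezo1*-deficient replicate 3 it was 0.24.

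**Figure D2:**
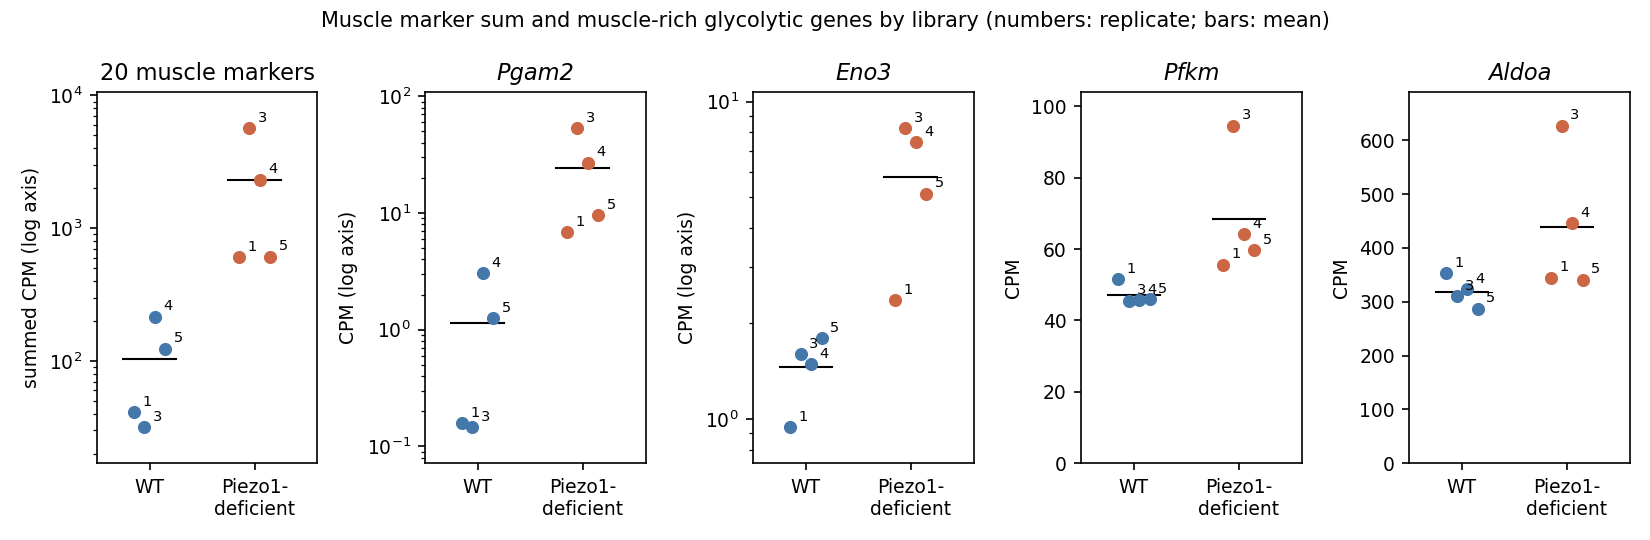
Summed CPM of 20 skeletal muscle markers and CPM of *Pgam2*, *Eno3*, *Pfkm* and *Aldoa* in each of the 8 libraries (points, numbered by replicate) with the group mean (bar); the first 3 panels have log axes. *Piezo1*-deficient replicate 3 is the highest in every panel, from a marker sum of 5694 CPM to 626.9 CPM of *Aldoa*.

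The muscle isoforms were then set against the ubiquitous genes of the same step within each library. Of the counts of *Pgam2* and *Pgam1* together, *Pgam2* had 1.099%, 1.117%, 19.1% and 7.44% in WT and 34.8%, 81.4%, 68.1% and 47.2% without *Piezo1*. Of *Eno3* and *Eno1*, *Eno3* had 0.890%, 1.73%, 1.67% and 1.92% in WT and 2.94%, 9.73%, 8.35% and 6.22% without *Piezo1*. *Pfkm* had 37.1%, 35.3%, 38.8% and 35.9% of the counts of *Pfkm*, *Pfkl* and *Pfkp* in WT and 41.4%, 56.6%, 46.9% and 44.6% without *Piezo1*. No share overlapped between the genotypes.

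On the log2 scale, with 0.5 CPM added to numerator and denominator, the ratio of muscle to ubiquitous isoform was higher without *Piezo1* by 4.03 for *Pgam2*, 1.84 for *Eno3* and 0.62 for *Pfkm*. The two-sided exact permutation test gave p = 0.0286 for each, the smallest value that 4 against 4 libraries allow, and an adjusted p of 0.0381 over the 4 ratios. For *Slc2a4* over *Slc2a1* and *Slc2a3* the difference was 0.53 (exact permutation, p = 0.171, adjusted p = 0.171). With any WT replicate or *Piezo1*-deficient replicate 3 left out, the first 3 ratios kept their direction but missed the threshold, with an adjusted p of at most 0.0762 in the exact permutation test. Every *Piezo1*-deficient ratio still lay above every WT ratio. With *Piezo1*-deficient replicate 1, 4 or 5 left out these ratios passed (exact permutation, adjusted p = 0.0381, 0.0286 and 0.0381). With a library fewer the test has fewer arrangements and coarser p-values in all of these settings. Why some passed and others did not was not tested. The *Pgam2*, *Eno3* and *Pfkm* ratios were highest in *Piezo1*-deficient replicate 3, the library with the most muscle marker RNA, and the *Slc2a4* ratio in replicate 5. The ubiquitous partners had log2 fold changes of -0.19 (*Pgam1*), -0.26 (*Eno1*), -0.09 (*Pfkl*) and -0.18 (*Pfkp*), and edgeR called none of them.

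**Figure D3:**
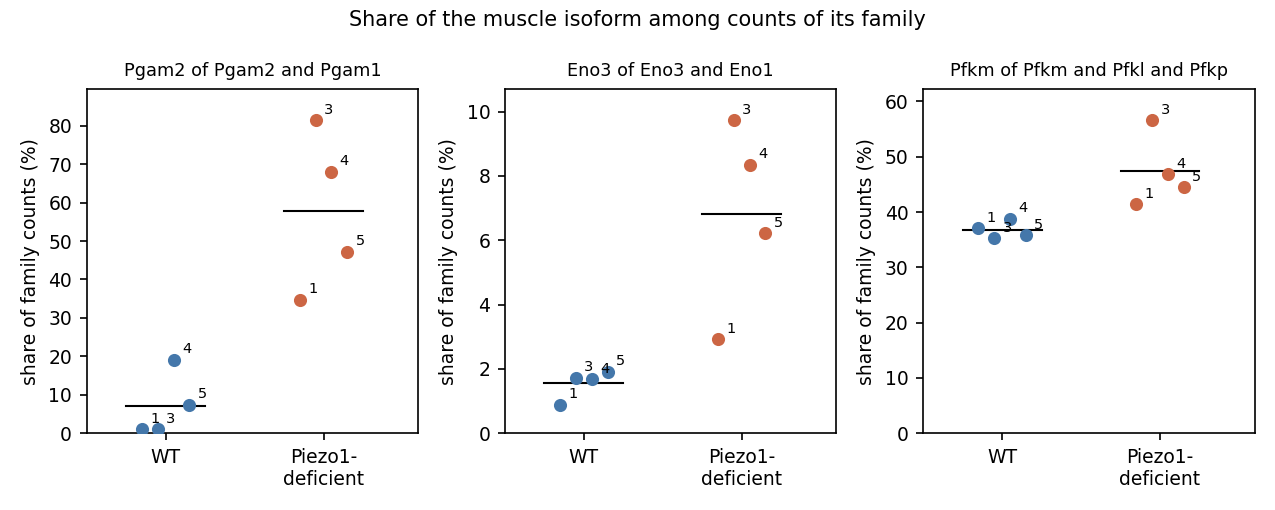
Share (%) of the muscle isoform among the counts of its family in each library (points, numbered by replicate; bars, group mean). The groups do not overlap in any panel, with *Pgam2* at 1.099% to 19.1% in WT and 34.8% to 81.4% without *Piezo1*.

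The entry of glucose and the exit of lactate run through transporters. *Slc2a1*, the basal glucose transporter GLUT1, was at 20.8, 16.4, 15.5 and 16.2 CPM in WT and at 12.9, 13.6, 16.6 and 13.3 CPM without *Piezo1*, with a log2 fold change of -0.28 (edgeR, adjusted p = 0.249), or -0.18 without WT replicate 1. *Slc2a3*, GLUT3, was at 38.6, 42.5, 46.9 and 48.4 CPM in WT and at 33.8, 35.8, 36.6 and 44.6 CPM without *Piezo1*, a log2 fold change of -0.23 (edgeR, adjusted p = 0.264). In each, 3 of 4 *Piezo1*-deficient libraries fell below the WT range and the fourth lay inside it. *Slc16a1*, the monocarboxylate transporter MCT1 and the most abundant transporter of the list per kilobase, was at 63.0, 62.8, 82.7 and 77.9 CPM and at 39.2, 72.2, 69.5 and 80.9 CPM. Its log2 fold change of -0.13 changed sign to 0.047 without *Piezo1*-deficient replicate 1. *Slc16a3*, the lactate exporter MCT4, had a log2 fold change of 0.07 with an SE of 0.17.

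Hexokinases trap glucose in the cell as glucose 6-phosphate. *Hk1* was at 124.9, 117.2, 120.6 and 118.7 CPM in WT and at 109.3, 109.5, 112.7 and 140 CPM without *Piezo1*, so 3 libraries were below the WT range and replicate 5 above it, with a log2 fold change of -0.03. *Hk2*, an insulin- and HIF-responsive isoform, had a log2 fold change of -0.06 with a 95% interval of the fold change from 0.770 to 1.19. *Hk3*, the hexokinase of myeloid cells, was at 51.3, 63.3, 70.8 and 75.9 CPM in WT and at 29.1, 53.4, 53.0 and 68.8 CPM without *Piezo1*, a log2 fold change of -0.36 (edgeR, adjusted p = 0.413). *Piezo1*-deficient replicate 1 had the lowest *Hk3* of all libraries, and it also had the lowest sum of 12 neutrophil markers. That sum was 5084, 6821, 7226 and 7541 CPM in WT and 2859, 5556, 5898 and 7549 CPM without *Piezo1*, with no marker at 0 and none called by edgeR (1 lower and 0 higher at an unadjusted p under 0.05). Relative to this sum *Hk3* was nearly even, at 1.01%, 0.928%, 0.980% and 1.01% in WT and 1.02%, 0.962%, 0.898% and 0.911% without *Piezo1*. Markers of other myeloid cells were also lower in sum. Osteoclast markers went from 9007 ± 502.5 to 6324 ± 1152 CPM, with 3 of 8 called lower. Monocyte and macrophage markers went from 1011 ± 58.2 to 843 ± 49.8 CPM, with 2 of 10 called lower (SD, n = 4). The part of neutrophil or other myeloid RNA in the level of *Hk3* was not tested beyond these values.

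*Gpi1*, which turns glucose 6-phosphate into fructose 6-phosphate, was at 283.6, 268.1, 276.5 and 279.2 CPM in WT and at 244, 265.4, 256.5 and 272.3 CPM without *Piezo1*, with a log2 fold change of -0.09. Phosphofructokinase makes the committed step. *Pfkl*, the liver isoform, was at 53.1, 49.7, 43.5 and 51.4 CPM and at 50.6, 43.5, 44.2 and 47.5 CPM. *Pfkp*, the platelet isoform, was at 34.2, 33.8, 28.6 and 30.9 CPM and at 28.2, 29.1, 28.4 and 26.9 CPM, with a log2 fold change of -0.18 (edgeR, adjusted p = 0.245). Neither set of libraries separated by genotype.

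The bifunctional PFK2/FBPase enzymes set fructose 2,6-bisphosphate, the activator of phosphofructokinase. *Pfkfb3*, the isoform with the highest kinase activity, was at 52.0, 46.9, 47.3 and 50.5 CPM in WT and at 45.4, 44.7, 44.0 and 43.3 CPM without *Piezo1*. All *Piezo1*-deficient libraries lay below WT, by a log2 fold change of -0.15 that was not called (edgeR, adjusted p = 0.221). *Pfkfb1*, *Pfkfb2* and *Pfkfb4* had log2 fold changes of 0.47, -0.08 and 0.03 and overlapping libraries. *Pfkfb1*, the isoform of liver and muscle, was low at 2.34 ± 0.365 CPM in WT and 3.25 ± 0.988 CPM without *Piezo1* (SD, n = 4).

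Below the aldolase step, triose phosphates pass to pyruvate. *Aldoc*, the brain aldolase, was at 4.63, 4.59, 4.34 and 4.53 CPM in WT and at 3.55, 3.03, 3.59 and 2.70 CPM without *Piezo1*, with no overlap and a log2 fold change of -0.49 with an SE of 0.15 (edgeR, adjusted p = 0.113). It was the most negative of the 39 fold changes. *Tpi1*, triose phosphate isomerase, had a log2 fold change of 0.15. *Gapdh*, often used as a reference gene, was at 33.2, 28.4, 28.1 and 26.9 CPM in WT and at 24.2, 28.3, 25.3 and 23.0 CPM without *Piezo1*, a log2 fold change of -0.21 (edgeR, adjusted p = 0.266). *Pgk1*, phosphoglycerate kinase, had a log2 fold change of 0.00.

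*Pgam1*, the mutase of most tissues, was at 14.1, 12.9, 12.9 and 15.5 CPM in WT and at 12.9, 12.3, 12.7 and 10.8 CPM without *Piezo1*. The groups did not overlap, by a narrow margin, and the log2 fold change of -0.19 was not called (edgeR, adjusted p = 0.367). *Eno1*, alpha-enolase, was at 104.8, 91.0, 87.5 and 91.9 CPM in WT and at 78.3, 76.7, 82.0 and 77.4 CPM without *Piezo1*. All *Piezo1*-deficient libraries lay below WT, with a log2 fold change of -0.26 and an SE of 0.07. It was not called by edgeR (adjusted p = 0.0804) and was called by the Wald test of DESeq2 (adjusted p = 0.0264). *Eno2*, the enolase of neurons, had a log2 fold change of 0.23 with an SE of 0.20. Per kilobase of exon, mean levels in WT were 17.4 CPM for *Eno1*, 0.863 for *Eno3* and 0.701 for *Eno2*, of which the last pair did not differ beyond their spread. Without *Piezo1* the levels per kilobase were 14.6 CPM for *Eno1*, 3.44 for *Eno3* and 0.825 for *Eno2*.

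*Pkm*, pyruvate kinase, was the most abundant member at 222 CPM per kilobase in WT. It was at 593.2, 524.6, 520.3 and 485.4 CPM in WT and at 506.4, 538.2, 515.5 and 534.6 CPM without *Piezo1*. *Ldha*, the lactate dehydrogenase subunit that favours lactate, was at 401.2, 339.1, 325.1 and 318.9 CPM and at 347.8, 342.5, 342.7 and 318.6 CPM. The genotypes overlapped for both genes, with log2 fold changes of -0.02 and -0.03 that turned to 0.038 and 0.045 without WT replicate 1. The 95% intervals of their fold changes ran from 0.881 to 1.104 and from 0.862 to 1.11. *Ldhb*, the subunit of oxidative tissues, had a log2 fold change of 0.10.

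Pyruvate dehydrogenase kinases hold pyruvate back from the mitochondria. *Pdk1*, a HIF target, was at 39.1 ± 2.98 CPM in WT and 36.1 ± 0.482 CPM without *Piezo1* (SD, n = 4), a log2 fold change of -0.12. *Pdk4*, which responds to fasting and fatty acid use, was at 40.9, 45.2, 54.0 and 50.6 CPM in WT and at 76.0, 76.7, 71.1 and 41.3 CPM without *Piezo1*. Replicates 1, 3 and 4 were above the WT range and replicate 5 was near its lower end. The log2 fold change of 0.48 was not called (edgeR, adjusted p = 0.173), and without *Piezo1*-deficient replicate 5 it was 0.64 and called (edgeR, adjusted p = 0.0115). Muscle marker sums in the *Piezo1*-deficient libraries were 605, 5694, 2322 and 612 CPM. Replicate 3 was the highest of them in both, while replicates 1 and 5 had similar sums and unlike *Pdk4*. The part of muscle RNA in *Pdk4* was not tested.

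Several glycolytic genes have many processed pseudogenes, which can draw reads away from the gene or add reads to it. Windows of 50 bases along each member's longest coding transcript were looked up in the mouse genome (NCBIM37). The share found elsewhere was 92.9% for *Pgk1*, 91.9% for *Pgam1*, 85.6% for *Gapdh*, 72.2% for *Eno1*, 61.7% for *Bnip3* and 41.4% for *Pkm*. It was 0% for *Pgam2*, *Eno3*, *Pfkm* and *Slc2a4*. *Gapdh* windows recurred in 232 regions of the genome, and *Gapdh* was at only 12.9 CPM per kilobase in WT. That compares with 75.0 for *Tpi1*, 116 for *Aldoa* and 116 for *Ldha*, whose own shares found elsewhere were 23.6%, 14.8% and 29.1%. The levels of *Gapdh*, *Pgk1*, *Pgam1*, *Eno1*, *Bnip3* and *Pkm*, and the *Pgam1* and *Eno1* denominators of the ratios above, are therefore uncertain. Levels of members with smaller shares, such as *Ldha* and *Tpi1*, may be affected as well.

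Some near copies have rows of their own. *Eno1b*, a near copy of *Eno1*, was at 17.6 ± 2.43 CPM in WT and 13.6 ± 1.3 CPM without *Piezo1* (SD, n = 4), a log2 fold change of -0.37 that was not called (edgeR, adjusted p = 0.118). *Pgam1-ps2* was at 1.92 ± 0.501 and 1.79 ± 0.166 CPM (SD, n = 4). Exons of another annotated gene, on the opposite strand for the largest overlaps, covered over 10% of exonic bases in 3 members, 28.9% in *Ankrd37*, 16.5% in *Gpi1* and 15.6% in *Slc16a3*. Reads of such partners may have been counted with the member's own, since the counter and its handling of strand are not given. No such overlap was annotated for the muscle isoforms.

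**Figure D4:**
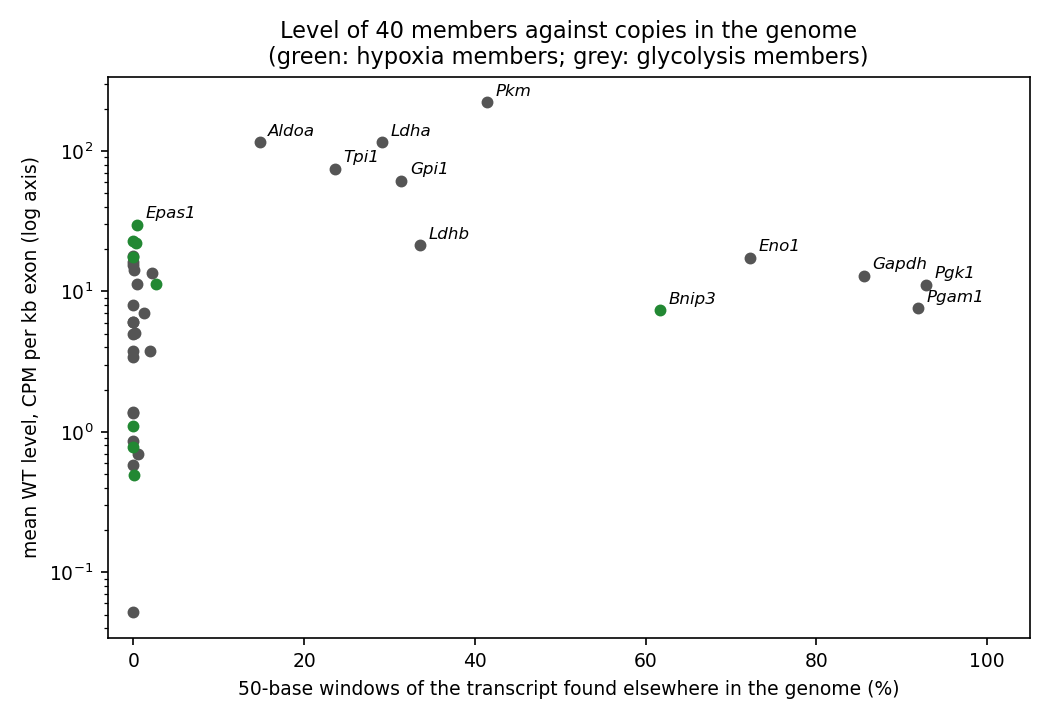
Mean WT level (CPM per kilobase of exon, log axis) against the share (%) of 50-base transcript windows that recur elsewhere in NCBIM37, for the 40 members (points). *Pgk1*, *Pgam1*, *Gapdh* and *Eno1* lie at the right with 72.2% to 92.9% of windows shared and 7.57 to 17.4 CPM per kilobase, below *Pkm*, *Aldoa*, *Ldha*, *Tpi1* and *Gpi1*.

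None of the 9 hypoxia response genes was called by edgeR or by the Wald test of DESeq2. Of these, 8 had a positive log2 fold change, as did 7828 of all 15318 genes tested. The 8 include *Hif1a* at 0.00 and *Egln3* at 0.01, in effect unchanged. The median was 0.16 and the range -0.14 to 0.21, beside a median of -0.08 for the 27 glycolysis members outside the muscle isoforms. With a library left out, the hypoxia median ran from 0.07 (without *Piezo1*-deficient replicate 1, and 0.11 without replicate 4) to 0.20, and the glycolysis median was -0.05 without *Piezo1*-deficient replicate 1 or WT replicate 1. At an unadjusted p under 0.05 there were 2, *Egln1* and *Vegfa*. *Hif1a*, the alpha subunit found in most cells, was at 111.6, 101.9, 98.8 and 100.8 CPM in WT and at 115.9, 108.3, 92.3 and 96.7 CPM without *Piezo1*, a log2 fold change of 0.00 whose 95% interval as a fold change ran from 0.881 to 1.14. *Epas1*, the alpha subunit HIF2A, was at 30.0 CPM per kilobase of annotated exon in WT. By library it was at 135.7, 165, 161.9 and 173.6 CPM in WT and at 177.1, 176.3, 164.8 and 161.2 CPM without *Piezo1*. Its log2 fold change was 0.09, or 0.026 without WT replicate 1. Their libraries overlapped.

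The prolyl hydroxylases mark HIF alpha subunits when oxygen is present. *Egln1* was at 44.6, 39.5, 37.9 and 35.9 CPM in WT and at 46.5, 44.72, 46.4 and 44.95 CPM without *Piezo1*, all above WT, with a log2 fold change of 0.21 (edgeR, adjusted p = 0.160). The closest libraries were WT replicate 1 and *Piezo1*-deficient replicate 3. *Egln3*, itself induced by HIF, was low and spread widely, at 2.94 ± 0.581 CPM in WT and 2.96 ± 1.18 CPM without *Piezo1* (SD, n = 4).

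*Vegfa*, the endothelial growth factor, was at 100.3, 94.5, 86.3 and 96.7 CPM in WT and at 123.2, 114, 107.4 and 92.4 CPM without *Piezo1*, a log2 fold change of 0.21 (edgeR, adjusted p = 0.248), with 3 of 4 libraries above the WT range. *Ndrg1*, a stress-induced gene, was at 175.7, 147.6, 141.3 and 137.9 CPM and at 208.7, 178, 143.9 and 144.7 CPM, a log2 fold change of 0.16, or 0.044 without *Piezo1*-deficient replicate 1. Replicate 1 was the highest library of its genotype in both groups for this gene. *Bnip3*, a receptor for the removal of mitochondria, had the negative value of the 9, a log2 fold change of -0.14. *Car9* and *Ankrd37*, known HIF targets, were at the low end, with WT means of 1.15 ± 0.277 and 1.09 ± 0.327 CPM and means without *Piezo1* of 1.32 ± 0.362 and 1.24 ± 0.277 CPM (SD, n = 4). At this depth the 95% intervals of their fold changes ran from 0.753 to 1.76 and from 0.751 to 1.75.

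**Figure D5:**
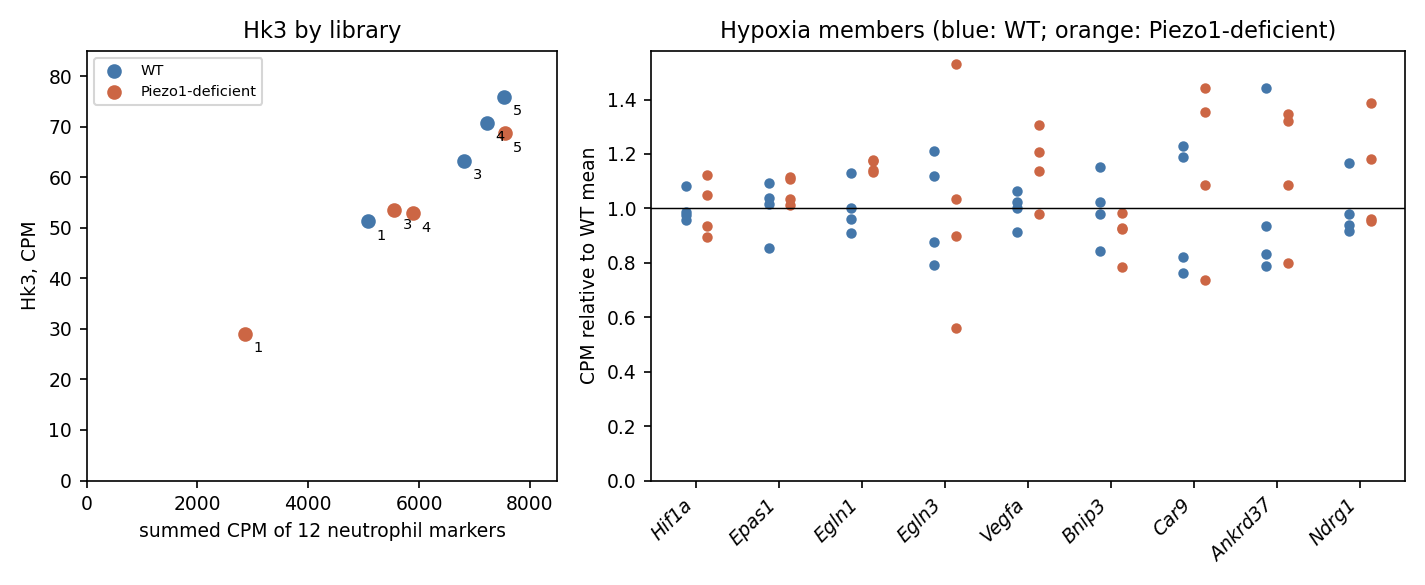
Left, *Hk3* CPM against the summed CPM of 12 neutrophil markers in the 8 libraries (numbered by replicate), with *Piezo1*-deficient replicate 1 lowest on both at 29.1 and 2859 CPM. Right, CPM of the 9 hypoxia members relative to their WT mean in each library, where *Egln1* is the gene whose groups do not overlap.

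Promoters of *Pgam1* and *Ldha* are printed as examples of ubiquitous isoforms that hold the hypoxia response core, ACGTG or GCGTG on either strand, in capitals, and that were not called. The windows are chr19:41911621-41911870 and chr7:46845554-46845803 of GRCm38.p6, both on the plus strand, from RefSeq.
Pgam1: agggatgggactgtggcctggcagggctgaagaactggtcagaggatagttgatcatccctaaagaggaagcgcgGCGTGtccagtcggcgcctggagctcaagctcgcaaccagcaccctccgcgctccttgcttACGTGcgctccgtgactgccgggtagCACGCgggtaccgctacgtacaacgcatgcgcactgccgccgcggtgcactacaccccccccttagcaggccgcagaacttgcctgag
Ldha: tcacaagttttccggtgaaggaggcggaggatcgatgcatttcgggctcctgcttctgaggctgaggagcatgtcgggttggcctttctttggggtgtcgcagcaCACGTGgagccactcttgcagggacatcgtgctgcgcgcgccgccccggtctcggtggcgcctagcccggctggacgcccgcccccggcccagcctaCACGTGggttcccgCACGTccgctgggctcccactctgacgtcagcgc
The windows held 3 and 5 matches. CACGTG counts once on each strand and is also a CANNTG. Either core was in 38.6% of all RefSeq windows, ACGTG in 16.6% and GCGTG in 28.2%, and in 27, 17 and 17 of the 36 members with a window. These member counts again rest on the first listed start of each gene. *Pgam2* held neither core, and *Eno3* held 1 GCGTG.

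Further genes of the same pathways were taken from longer lists. Of 38 tested further genes of glucose metabolism edgeR called none higher and 1 lower, against 2.04% and 0.973% over all genes tested. Their median log2 fold change was 0.02. At an unadjusted p under 0.05 there were 6 higher and 5 lower, against 10.5% and 7.89% over all genes tested. The Wald test of DESeq2 called 4 higher and 2 lower, and over all 15318 genes tested 592 higher and 358 lower. The gene called lower by edgeR was *Pgd*, of the pentose phosphate pathway. It was at 19.8, 22.7, 24.5 and 26.8 CPM in WT and 18.3, 16.4, 16.9 and 17.1 CPM without *Piezo1*. Its log2 fold change was -0.45 with an SE of 0.10 (edgeR, adjusted p = 0.0423). That call was lost without any of WT replicates 3, 4 and 5 or *Piezo1*-deficient replicates 3, 4 and 5, where edgeR's adjusted p reached at most 0.144.

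Of 48 tested further hypoxia genes 4 were called higher and 0 lower, against 2.04% higher over all genes tested, with a median log2 fold change of 0.10. At an unadjusted p under 0.05 there were 12 higher and 2 lower, against 10.5% and 7.89% over all genes tested. *Loxl2*, a collagen and elastin crosslinking enzyme, was at 127.7, 166.8, 166.6 and 130.9 CPM in WT and at 231, 256.9, 296.2 and 316.5 CPM without *Piezo1* (log2 fold change 0.89, edgeR, adjusted p = 0.0056). *Lox*, lysyl oxidase, was at 625.7, 555, 674.8 and 594.4 CPM and at 1004, 834.4, 833.7 and 830.7 CPM (log2 fold change 0.52, edgeR, adjusted p = 0.0165). *Tmem45a* and the nuclear receptor *Rora* were the others, with log2 fold changes of 0.38 and 0.52 (edgeR, adjusted p = 0.0252 and 0.0338). All 4 had no overlap between the genotypes. Of the 48, 6 lay wholly above WT and 0 below, against 6.65% and 5.27% over all genes tested. Of 9 tendon and periosteal fibroblast markers, 3 were called higher (*Postn*, *Cilp2* and *Thbs4*) and 1 lower (*Comp*, log2 fold change -2.82). Their sum was 1364 ± 279.8 CPM in WT and 1937 ± 264.6 CPM without *Piezo1* (SD, n = 4). *Postn*, the largest part of that sum, went from 736 ± 162 to 1315 ± 144 CPM. *Comp* went from 183 ± 69.6 to 25.9 ± 13.1 CPM (SD, n = 4). Of 10 osteoblast and osteocyte markers, *Bglap* was called higher, and *Col1a1*, which makes up most of their sum, was at 95776 ± 9737 CPM in WT and 130990 ± 22047 CPM without *Piezo1* (SD, n = 4) and was not called (edgeR, adjusted p = 0.134). The part of these cells in the values of *Lox* and *Loxl2* was not tested. Fewer were called without WT replicates 3 (1), 4 (2) or 5 (1) and more without WT replicate 1 (7), and *Loxl2* was called each time a library was left out.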

How the data were processed

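RNA of cortical bone ground in liquid nitrogen was made into Illumina TruSeq libraries of 4 WT and 4 *Prx1Cre; Piezo1fl/fl* samples. The authors deposited whole-number counts per gene for 19201 genes. Their table also holds a log2 fold change, a p-value and an FDR of the authors' own comparison, and these 3 columns were not used. The paper's methods name TopHat and mm9, the submitters' processing notes HISAT2 and GRCm38. The counter, its annotation and its handling of reads with several matches are not given in the sources used here.

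The genotypes were compared by the quasi-likelihood F test of edgeR 4.0.16 (R 4.3.3, filterByExpr, TMM, Benjamini-Hochberg over 15318 genes, threshold 0.05). TMM factors were 0.888 to 1.07, the biological coefficient of variation 13.1%. SE is the absolute log2 fold change over the root of F. CPM use TMM-adjusted library sizes. Totals of 11963536 to 14536106 counts set the precision, and intervals cover counting error and the spread of 4 samples. On simulated counts (15146 genes) the test recovered 84% of 100 genes changed 2-fold and 98% of 100 changed 4-fold, with 5 false among 187 calls. The changed genes were drawn above a floor of mean CPM, and counts followed the fitted dispersions with no outlying library. Changes under 2-fold, the size seen for most members, were not simulated, so these rates do not apply to them. Isoform ratios were compared by exact permutation. No library pair was a duplicate.

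The members and lists were chosen with earlier results of these data known. Values by library were given for called members, the muscle isoforms and their paralogs and the most abundant member of each step (by CPM, without length), for *Acta1* and *Ckm*, and for called genes of the further lists. *Hk3*, *Aldoc*, *Hif1a*, *Egln1*, *Vegfa*, *Piezo1*, *Gpd1*, the named bone and tendon markers, the sperm isoforms and the near copies are outside this rule and were chosen after their values were seen. Of 50 genes in each further list 45 and 49 were in the table. Lengths and windows come from GENCODE M1 (NCBIM37, all 40 members matched), promoters from RefSeq (GRCm38.p6, 36 of 40). Levels per kilobase divide by all annotated exons of a gene joined. Where these exceed the longest coding transcript, such levels read lower than by that transcript. Examples are *Eno1* (5.379 kb against 2027 bases) and *Ndrg1* (6.593 kb against 2886 bases). Alternatives were DESeq2 1.42.0 (size factors and Wald test), depth computed with *Col1a1*, *Col1a2* and *Sparc* removed, no filter, a mean of at least 5 CPM, a replicate block, and leaving out each library.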

Additional observations from a re-analysis of the deposited data

Results flagged for a closer look

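In 6 of 80 groups of 4 libraries (40 members in each genotype) the highest or lowest library lay apart from the other 3 by Dixon's criterion, where chance gives about 5%. WT replicate 1 was apart for *Slc2a1* (20.8 CPM, others 15.5 to 16.4), *Pfkm* (51.5 CPM, others 45.6 to 46.0) and *Pfkfb4* (28.5 CPM, others 34.2 to 35.4). *Piezo1*-deficient replicate 5 was apart for *Hk1* (140 CPM, others 109 to 113) and *Pdk4* (41.3 CPM, others 71.1 to 76.7), and *Piezo1*-deficient replicate 1 for *Eno2* (4.99 CPM, others 3.48 to 3.54).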

How the results depend on the processing

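*Pgam2* and *Eno3* were the members called with DESeq2 size factors, with depth computed after *Col1a1*, *Col1a2* and *Sparc* were removed, and with no filter. A mean of at least 5 CPM, which *Eno3* does not reach, left 1 (*Pgam2*). The DESeq2 Wald test added *Pfkm* as higher and *Eno1* as lower, 1 member lower. Leaving out each library gave 0 to 3 members higher and 0 lower. Further glycolysis genes called higher were 1 with no filter, 4 with the Wald test, 1 with the replicate block and 0 to 2 with a library left out. Called lower were 2, 2 and 0 to 1 under the last 3 of these. Further hypoxia genes called higher were 7 with the Wald test, 8 with the block and 1 to 7 with a library left out, and 1 was called lower with the block.

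Leaving out a library moved the ratio differences to 0.45 to 0.74 for *Pfkm*, 3.51 to 4.55 for *Pgam2*, 1.63 to 2.18 for *Eno3* and 0.27 to 0.77 for *Slc2a4*. The lowest adjusted p of *Slc2a4* in the exact permutation test was then 0.0286, without *Piezo1*-deficient replicate 4. The log2 fold change ran from -0.25 to 0.047 for *Slc16a1* and from -0.13 to 0.0012 for *Hk1*, the sign turning without *Piezo1*-deficient replicate 1, and from -0.062 to 0.038 for *Pkm* and -0.073 to 0.045 for *Ldha*, the sign turning without WT replicate 1. The causes were not tested, except that fewer libraries were fitted.

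Replicate numbers are shared by the genotypes, and the labels do not say whether they pair the samples. Same-number correlations were 0.377, -0.23, 0.204 and 0.0018. WT replicate 1 correlated most with *Piezo1*-deficient replicate 1, and the other WT replicates with another number. An effect shared by both libraries of replicate 1 was not tested. With the replicate block the same 2 members were called and all calls went from 313 higher and 149 lower to 506 and 320. The ratio differences of 0.62, 4.03 and 1.84 had an adjusted p of 0.167 by exact sign flips within the block, which 4 pairs cannot bring below the threshold. Over all genes the Wald test called 592 higher and 358 lower and leaving out a library 71 to 415 and 49 to 271. No scaling moved the median of all genes by over 0.1 on the log2 scale. These scalings centre the bulk of the genes, so the median could hardly move and cannot show whether scaling matters. Counts of 2 in WT limit *Pgam2* and *Slc2a4*.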

Other observations

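Isoforms of glycolytic enzymes that are characteristic of male germ cells were listed among the further genes, and their counts were looked at after the values were seen. *Gapdhs*, the sperm form of glyceraldehyde 3-phosphate dehydrogenase, had 43 counts in *Piezo1*-deficient replicate 1 and 0 in each of the other libraries. *Pgk2*, the sperm phosphoglycerate kinase, had 14 counts in the same library and 0 elsewhere. *Ldhc*, the sperm lactate dehydrogenase, had 8, 7, 10 and 3 counts in WT and 19, 2, 2 and 2 without *Piezo1*. *Gpd1*, the cytosolic glycerol 3-phosphate dehydrogenase of muscle and fat, was at 4.78 ± 1.39 CPM in WT and 15.9 ± 8.07 CPM without *Piezo1* (SD, n = 4), a log2 fold change of 1.73 that was not called (edgeR, adjusted p = 0.0517).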
